A study of Mus musculus with 4 samples.

Results

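Genes of GABA and glycine neurons were followed in ribosome-bound RNA pulled down from glutamatergic neurons of the deep cerebellar nuclei, through which the cerebellum sends its output. The 8 genes were chosen by their roles and taken by exact symbol: Gad1 and Gad2 (GABA synthesis), Slc32a1 (vesicle loading), Slc6a5, Slc6a9 and Slc6a11 (uptake across the plasma membrane), and the transcription factor genes Pax2 and Sox14. All 8 were found among 32532 gene names. The samples are 4 immunopurified libraries of untreated adult transgenic mice of line JX883 (Slc17a6-TRAP), each from a pool of 3 mice. The transgene, Slc17a6-EGFP/Rpl10a, puts EGFP on a ribosomal protein, and antibodies against EGFP pull down tagged polysomes with their RNA. Input RNA, another genotype or another cell type was not analysed here, which leaves no measure of enrichment, and the labels do not say whether the pools of mice were independent. All p-values therefore concern the spread between these 4 libraries.

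Inhibitory neurons make GABA from glutamate with the decarboxylases GAD67 (Gad1) and GAD65 (Gad2). Both GABA and glycine are loaded into synaptic vesicles by the same carrier, VGAT (Slc32a1), and glycinergic neurons gather glycine with GlyT2 (Slc6a5). The cerebellar nuclei hold glutamatergic projection neurons, GABAergic neurons that project to the inferior olive, and local neurons that use GABA, glycine or both. GlyT1 (Slc6a9) and GAT3 (Slc6a11) are best known from astrocytes. In bulk RNA, fewer cells of a type and less RNA per cell cannot be told apart.

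Counts assigned to genes ranged from 9621762 to 10988373 per library. Replicate 4 had the most counts but the fewest genes with a count, 14952, against 16343, 16749 and 15492 in replicates 1 to 3. Rn45s, the ribosomal RNA precursor, took 4.99, 14.2, 13.6 and 4.92% of them in replicates 1 to 4, and left out of the totals it moved no member's mean CPM by more than its SD. A library with no count for a gene can still hold it at up to 0.273 to 0.312 counts per 1000000 (CPM), the level of 3 counts, and these limits cover counting error only. Slc17a6, the gene that names the line and encodes the vesicular glutamate transporter VGLUT2, ranged from 2011 to 2309 CPM. The glutamatergic nuclear neuron markers (8 genes) summed to between 2498 and 3056 CPM, but they include Slc17a6, which is most of that sum. The other genes of the list varied more. Lhx9 was read at 148, 44.9, 46.2 and 127 CPM in replicates 1 to 4 and Meis2 at 367, 331, 226 and 446 CPM. Their course was not shared by the rest. Spp1, at 133, 56.7, 141 and 78.0 CPM, was highest in replicate 3. Meis1 was highest in replicate 2, Lhx2 in replicate 1, and Tbr1 and Irx3 in replicate 4. The library names of replicates 1 to 3 run in sequence (1300, 1301 and 1302) and that of replicate 4 is 1476, so a difference of replicate 4 and this break in numbering cannot be told apart.

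The sequences upstream of the RefSeq start sites (build GRCm38.p6) are shown for 3 members that shared a pattern over libraries, Gad1, Gad2 and Slc6a5, and for 2 that did not, Slc6a11 and Sox14. Bases run 5′ to 3′, stop before the first annotated exon base within the window and are in lower case, with each CANNTG, the E-box read by basic helix-loop-helix factors, in capitals.
Gad1, chr2:70561879-70562041, plus strand: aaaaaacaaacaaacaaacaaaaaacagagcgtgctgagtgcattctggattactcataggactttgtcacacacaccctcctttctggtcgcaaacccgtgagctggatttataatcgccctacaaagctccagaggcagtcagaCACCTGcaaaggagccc
Gad2, chr2:22622077-22622204, plus strand: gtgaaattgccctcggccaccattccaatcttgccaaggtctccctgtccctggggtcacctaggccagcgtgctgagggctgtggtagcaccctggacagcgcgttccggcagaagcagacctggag
Slc6a5, chr7:49910049-49910145, plus strand: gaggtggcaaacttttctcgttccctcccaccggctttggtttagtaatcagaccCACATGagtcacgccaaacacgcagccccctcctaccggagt
Slc6a11, chr6:114130991-114131240, plus strand: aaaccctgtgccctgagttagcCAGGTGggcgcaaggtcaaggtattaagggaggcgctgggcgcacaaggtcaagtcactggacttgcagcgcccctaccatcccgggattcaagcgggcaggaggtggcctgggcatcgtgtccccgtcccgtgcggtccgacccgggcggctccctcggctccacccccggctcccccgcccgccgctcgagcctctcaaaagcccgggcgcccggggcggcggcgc
Sox14, chr9:99876171-99876420, minus strand: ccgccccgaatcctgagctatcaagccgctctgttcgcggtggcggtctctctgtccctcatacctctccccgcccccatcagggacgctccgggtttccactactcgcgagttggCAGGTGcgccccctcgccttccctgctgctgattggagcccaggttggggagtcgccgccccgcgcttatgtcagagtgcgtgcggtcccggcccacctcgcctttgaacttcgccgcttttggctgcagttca

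The start site used for Gad1 lies inside the annotated span of the gene, since another annotated transcript begins upstream of it. The window for Slc32a1 is mostly annotated exon and is not printed. The 8 genes have 13 windows of 250 bases before a start site, since Slc6a5, Slc6a9 and Pax2 have several, and shares are over windows. A CANNTG stood in 10 of the 13 windows, at least 1 for each gene, against 66.2% of all 32851 windows in the table. TGGGAA, the core letters of the RBPJ motif, was found on either strand in 2 of 13, 1 of Slc6a5 and 1 of Pax2, against 21.6%. TATAAA was found on either strand in 1 of 13, that of Gad1, against 12.4%, and the GC box GGGCGG in 6 of 13, against 32.7%. The SOX letters AACAAT were found in 0 of 13, against 9.42%. The window of Slc6a11 held 71.2% G and C, above 92.2% of all windows, whereas the first window of Slc6a5 held 50.4%, above 42.7%. A match describes these letters only.

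Gad2 was the most abundant of the 8 genes. It lies on chromosome 2 at 22622205 to 22693874 (mm10, plus strand) and was read at 72.2, 114, 239 and 57.1 CPM in replicates 1 to 4, a mean of 120.4 ± 82.4 CPM (SD, n = 4). Gad1, on the same chromosome at 70553072 to 70602014 (plus strand), was read at 34.1, 43.4, 91.1 and 14.0 CPM, a mean of 45.6 ± 32.7 CPM. Replicate 3 was highest and replicate 4 lowest for both genes, and the 95% counting intervals (exact Clopper-Pearson) of these 2 libraries were far apart, 229 to 248 against 52.7 to 61.7 CPM for Gad2. The highest library exceeded the lowest by 4.18-fold for Gad2 and by 6.50-fold for Gad1.

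Levels of different genes were compared only per length, as counts per kilobase of exon scaled to 1000000 in each library (TPM). Gad2 exceeded Gad1 in TPM in 4 of 4 libraries, by 2.75, 3.41, 3.40 and 5.29 times in replicates 1 to 4. The mean log2 difference was 1.82 ± 0.38 (SD, n = 4) with the union of all annotated exons as length. Gad1 has many alternative exons, 7639 bases in union against 3601 in its longest transcript, and with the longest transcript of each gene the difference was 0.79 ± 0.39, again with Gad2 higher in 4 of 4 libraries. The direction was the same with both lengths and the size was not.

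Slc32a1, the shared vesicular carrier, varied more than the enzymes. It lies on chromosome 2 at 158610767 to 158615748 (plus strand) and was read at 5.51, 13.8, 29.3 and 1.18 CPM, or 53, 142, 306 and 13 counts. Replicate 3 exceeded replicate 4 by 24.8-fold in CPM, against 4.18-fold for Gad2. The TPM ratio of Gad2 to Slc32a1 was accordingly 6.24, 3.93, 3.87 and 23.0 in replicates 1 to 4, and that of Gad1 to Slc32a1 was 2.27, 1.15, 1.14 and 4.34. Replicates 2 and 3 had nearly the same ratios although their levels differed, and replicate 4 had the highest. Of the 2797 exon bases of Slc32a1, 697 lie over an exon of Gm14205 on the opposite strand, a gene that the count files do not list, so its reads would be counted for Slc32a1 if the counting ignored strand. The mean of Slc32a1, 12.4 ± 12.4 CPM (SD, n = 4), fell to 6.82 CPM without replicate 3.

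Slc6a5, the glycine transporter of glycinergic neurons, followed the same libraries at a lower level. It lies on chromosome 7 at 49910146 to 49963856 (plus strand) and had 17, 19, 103 and 0 counts, or 1.77, 1.84, 9.87 and 0 CPM. Replicates 1 and 2 could not be told apart, with 95% counting intervals of 1.03 to 2.83 and 1.11 to 2.88 CPM. Replicate 3 was at least 36.1-fold higher than replicate 4, taken against 3 counts in that library. The mean without replicate 3 was 1.20 CPM, against 3.37 CPM with it. Slc32a1 exceeded Slc6a5 in TPM by 8.03, 19.2 and 7.65 times in replicates 1 to 3.

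**Figure D1:**
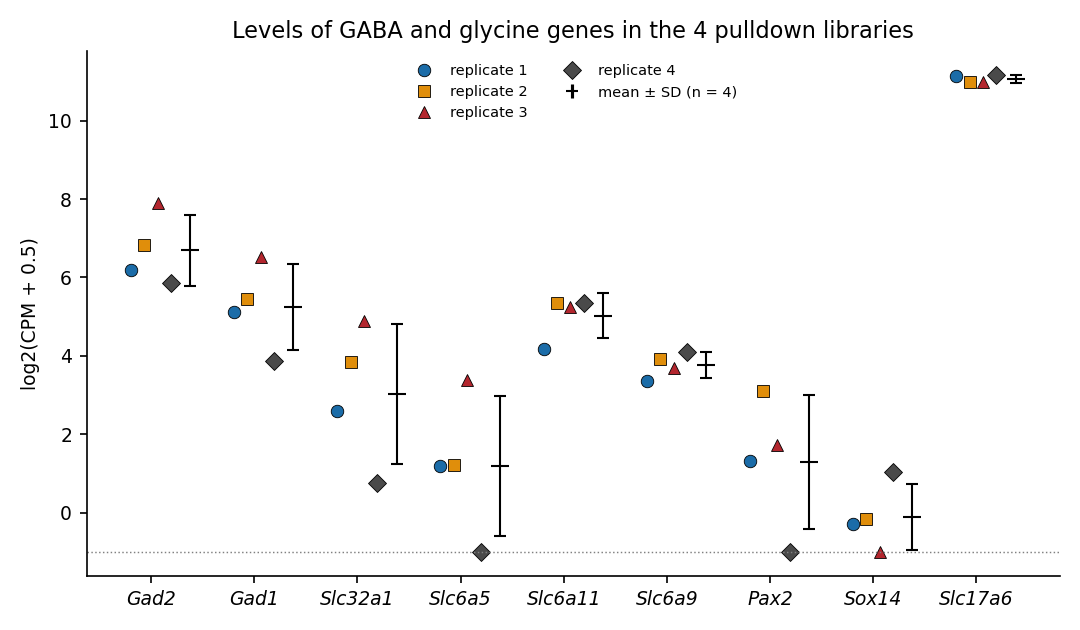
Level of each gene in each library as log2(CPM + 0.5), with the mean ± SD of the 4 libraries on that scale beside the points; the dotted line is the value of a gene with no count. Gad2, Gad1, Slc32a1 and Slc6a5 are highest in replicate 3 and lowest in replicate 4, whereas Slc17a6 stays between 2011 and 2309 CPM.

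Set against the targeted gene, all 8 were minor. Per 100 of Slc17a6 in TPM, Gad2 came to 2.97, 5.19, 10.9 and 2.27 in replicates 1 to 4, and Gad1 to 1.08, 1.52, 3.20 and 0.429. Slc32a1 came to 0.475, 1.32, 2.81 and 0.0989. Slc6a11 was under 1 in replicate 1 and 1.85 to 2.13 in the others, and Slc6a9 ranged from 0.454 to 0.770. Pax2, Slc6a5 and Sox14 did not exceed 0.405, 0.367 and 0.175 in any library. The 5 members that passed the low-count filter lay below Slc17a6 by a log2 difference of -4.49 ± 0.99 (Gad2) to -7.23 ± 0.34 (Slc6a9; SD, n = 4), each in 4 of 4 libraries, with limma adjusted p from 3.0e-08 to 8.5e-06. Since 99.7% of the 10912 genes tested were called apart from Slc17a6 and 99.5% lay below it, 5 of 5 members doing so is no result particular to them. With no filter 99.8% of 16567 genes were called apart and 99.7% below, and so were all 8 members, with Slc6a5 at -10.09 ± 1.68, Pax2 at -9.76 ± 1.77 and Sox14 at -10.50 ± 1.24.

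Slc6a11 and Slc6a9 took another course over the libraries. Slc6a11, the GABA transporter GAT3, lies on chromosome 6 at 114131241 to 114249952 (plus strand) and was read at 17.4, 40.0, 37.5 and 40.0 CPM, so that replicate 1 stood below the other 3, which lay close together. Slc6a9, the glycine transporter GlyT1, lies on chromosome 4 at 117834506 to 117875198 (plus strand) and was read at 9.67, 14.7, 12.3 and 16.7 CPM. Its highest library exceeded its lowest by only 1.72-fold, and replicate 4, the lowest for Gad1, Gad2, Slc32a1 and Slc6a5, was its highest. In TPM Slc6a11 exceeded Slc6a9 by 1.83, 2.76, 3.11 and 2.44 times in replicates 1 to 4, a log2 difference of 1.28 ± 0.33 (SD, n = 4). Of the 5141 exon bases of Slc6a9, 1555 lie over exons of genes on the opposite strand, among them B4galt2, which had 129, 172, 121 and 104 counts.

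The transcription factor genes were low and differed in their highest library. Pax2, a factor of inhibitory interneuron precursors in the cerebellum, lies on chromosome 19 at 44756045 to 44837871 (plus strand) and had 19, 84, 29 and 0 counts, or 1.97, 8.15, 2.78 and 0 CPM. Its highest library was replicate 2, at least 29.9-fold above replicate 4 when 3 counts are allowed there. Sox14, a factor of inhibitory neurons that project from the nuclei, lies on chromosome 9 at 99874106 to 99876170 (minus strand) and had 3, 4, 0 and 17 counts, or 0.312, 0.388, 0 and 1.55 CPM. Its highest library was replicate 4, in which Pax2 and Slc6a5 had 0 counts, and its lowest was replicate 3, in which Gad1, Gad2, Slc32a1 and Slc6a5 were highest. The 95% counting intervals of Sox14 in replicates 1 and 2, 0.0643 to 0.911 and 0.106 to 0.994 CPM, overlapped that of replicate 4, 0.901 to 2.48 CPM, while that of replicate 3 ended at 0.353 CPM. The mean of Pax2 was 3.23 CPM and 1.58 CPM without replicate 2, and that of Sox14 was 0.562 CPM and 0.233 CPM without replicate 4.

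In the order of mean TPM the members ran Gad2 (108), Slc6a11 (34.9), Gad1 (31.4), Slc32a1 (23.7), Slc6a9 (13.4), Pax2 (3.12), Slc6a5 (2.50) and Sox14 (1.39). An exact sign-flip permutation test over 4 libraries cannot go below p = 0.13, so neighbours are given by direction and spread. Gad2 lay above Slc6a11 by a log2 difference of 1.45 ± 0.91 (SD, n = 4), Gad1 above Slc32a1 by 0.85 ± 0.82 and Slc6a9 above Pax2 by 2.53 ± 1.81, each in 4 of 4 libraries (exact two-sided p = 0.13, the smallest possible). The other 4 neighbouring pairs did not differ beyond their spread: Slc6a11 and Gad1 (0.37 ± 1.22), Slc32a1 and Slc6a9 (0.06 ± 2.01), Pax2 and Slc6a5 (0.34 ± 1.43), and Slc6a5 and Sox14 (0.41 ± 2.91), with exact two-sided p from 0.625 to 0.875. With the longest transcript as length, Gad1 was above Slc6a11 (-0.41 ± 1.23) and Slc6a9 above Slc32a1 (-0.47 ± 1.98).

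Gad1, Gad2, Slc32a1 and Slc6a5 had the same order of libraries, replicate 3 above 2, 1 and 4. Of 13656 genes with a mean of at least 1 CPM, 932 (6.82%) had this order, as did 4 of the 7 members at that level; the order was noticed in these values, and the step between replicates 1 and 2 for Slc6a5 is within counting error. As a summed level the 4 genes came to 114, 173, 369 and 72.3 CPM in replicates 1 to 4. Their spread was wide for their level. The SD of log2(CPM + 0.5) was 0.90 for Gad2, above that of 97.4% of the 2685 genes with a mean within 2-fold of its own, 1.10 for Gad1 (97.5% of 4049 genes), 1.78 for Slc32a1 (98.0% of 3937) and 1.79 for Slc6a5 (93.7% of 2858). Slc6a9, at 0.33, was above only 13.2% of 4017 genes, and Slc6a11, at 0.58, above 66.7% of 4170. Pax2, at 1.71, was above 91.3% of 2842 genes.

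**Figure D2:**
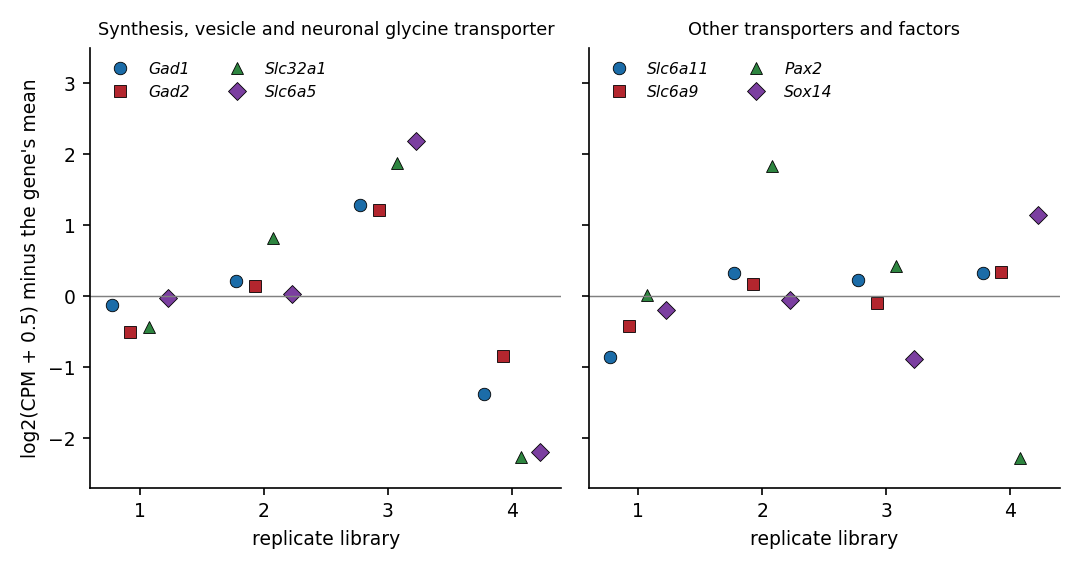
Deviation of each gene from its own mean over the 4 libraries, on the log2(CPM + 0.5) scale, for the 4 genes with the same order of libraries (left) and the other 4 (right); replicates have no order of their own. On the left all 4 points of replicate 3 lie above and all 4 of replicate 4 below the mean, while on the right Sox14 is highest in replicate 4 (1.14) and Pax2 in replicate 2 (1.83).

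Whether a member differed in 1 library from the other 3 was tested on counts over all genes with edgeR's quasi-likelihood test. Of the 8 members, 5 passed the filter on low counts (Gad1, Gad2, Slc32a1, Slc6a9 and Slc6a11), and Slc6a5, Pax2 and Sox14 did not. In replicate 3 the log2 fold changes were 1.64 ± 0.52 (SE) for Gad1, 1.60 ± 0.44 for Gad2 and 2.15 ± 0.87 for Slc32a1, with adjusted p of 0.525, 0.399 and 0.627. In replicate 4 they were -1.90 ± 0.64 for Gad1, -1.21 ± 0.66 for Gad2 and -3.67 ± 1.14 for Slc32a1, with adjusted p of 0.226, 0.418 and 0.200 by the same test. Slc6a11 in replicate 1 had a value of -1.36 ± 0.58 and an adjusted p of 0.990. None of the 5 members was called in any of the 4 comparisons.

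The test called few genes of any kind at an adjusted p under 0.05: 1, 0, 0 and 6 of 11227 genes in replicates 1 to 4, or 0.00891, 0, 0 and 0.0534%. At an unadjusted p under 0.05 it passed 424, 44, 779 and 1692 genes, or 3.78, 0.392, 6.94 and 15.1%. In replicate 3, 3 of the 5 members were higher by that rule (Gad1, Gad2 and Slc32a1), against 3.66% of all genes tested, and in replicate 4, 2 of 5 were lower (Gad1 and Slc32a1), against 7.28%. In replicate 1 it was Slc6a11 alone that was lower, 1 of 5, against 1.76%, and in replicate 2 there were 0 of 5, against 0.392% in either direction.

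The calls in replicate 4 depended on the tool. DESeq2 called Slc32a1 lower there (log2 fold change -3.68, adjusted p = 0.0104), as 1 of 5 members, where it called 2.07% of genes lower, and gave Gad1 an adjusted p of 0.0503. In replicates 1 to 4 it called 0.0980, 0.00891, 0.169 and 0.980% of genes higher and 0.0267, 0, 0.445 and 2.07% lower. With edgeR and no filter on low counts all 8 members were tested, and Slc32a1 (-3.65, adjusted p = 0.0169) and Gad1 (-1.87, adjusted p = 0.0304) were called lower in replicate 4, against 0.936% of genes. By that rule 0.144, 0, 0.225 and 1.29% of 18704 genes were called higher in replicates 1 to 4, and 0.0267, 0 and 0.235% lower in replicates 1 to 3. Slc6a5 and Pax2, with 0 counts in that library, had adjusted p of 0.0580 and 0.0663 there. In no other library was a member called by either alternative, and Gad2 in replicate 3 came nearest with edgeR and no filter (1.60, adjusted p = 0.0603). Among replicates 1 to 3 alone, replicate 3 still lay above the other libraries by 1.31 for Gad1, 1.43 for Gad2 and 1.65 for Slc32a1 on the log2 scale, with edgeR adjusted p of 0.216, 0.173 and 0.300. Without replicate 3, replicate 4 differed from replicates 1 and 2 by -1.33 for Gad1, -0.57 for Gad2 and -2.90 for Slc32a1, with edgeR adjusted p of 0.165, 0.475 and 0.110. The value of Slc32a1 in replicate 3 was 3.25 without replicate 2 (edgeR adjusted p = 0.272).

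**Figure D3:**
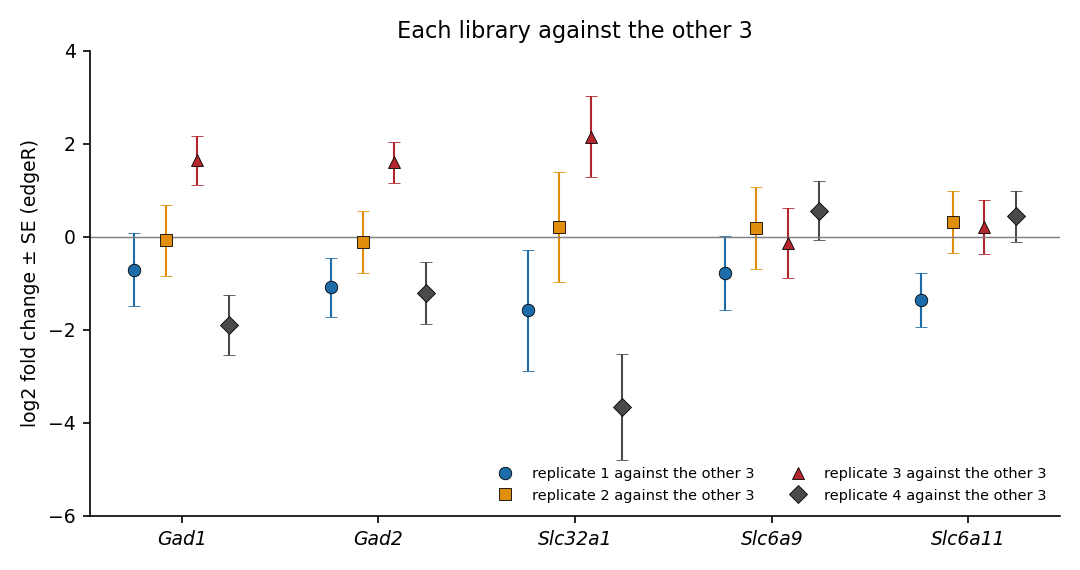
Log2 fold change ± SE of each library against the other 3 from edgeR, for the 5 members that passed the low-count filter. Replicate 3 lies above 0 and replicate 4 below 0 for Gad1, Gad2 and Slc32a1, with adjusted p from 0.200 to 0.627, and for Slc6a9 and Slc6a11 the values of replicates 2 to 4 lie between -0.14 and 0.56.

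Markers of other cells moved between the libraries too. The Purkinje cell list (10 genes), GABA neurons of the cerebellar cortex, summed to 1361, 1646, 3289 and 1163 CPM in replicates 1 to 4, the same order of libraries as the 4 members. The gene with the most counts was Itpr1, at 591, 796, 1738 and 417 CPM, and its highest gene in TPM was Car8, at 173, 294, 621 and 84.6 CPM. Among other genes of the list, Calb1 was read at 30.5, 41.8, 59.0 and 31.6 CPM and Ppp1r17 at 18.0, 19.9, 42.7 and 6.46 CPM. Not every gene had the order of the sum. Rgs8, second in TPM, was read at 534, 469.8, 808 and 617 CPM and Gng13 at 3.64, 4.37, 1.63 and 0.910 CPM. Pcp2 was read at 4.37, 13.0, 9.68 and 0.910 CPM and Skor2 at 0.182 to 0.958 CPM, and 6 of the 10 genes reached 1 CPM in every library. The 6 Purkinje genes tested had a median log2 fold change of 1.19 in replicate 3 and -1.19 in replicate 4. None was called by edgeR, 3 were higher in replicate 3 and 2 lower in replicate 4 at an unadjusted p under 0.05, and DESeq2 called Car8 lower in replicate 4. Cortical interneuron markers (8 genes, all at 1 CPM or more in every library, led by Nxph1) summed to between 260.3 and 307 CPM, with a median log2 fold change of 0.13 in replicate 3 and -0.05 in replicate 4. In replicate 3 their values ran from -1.36 (Lypd6) to 2.31 (Prkcd), and edgeR called none of them. Granule cell markers (6 genes, led by Cbln3) summed to 545, 694, 1273 and 569 CPM. Their median log2 fold change was 1.18 in replicate 3 (0.67 to 1.52) and -0.39 in replicate 4 (-0.72 to -0.02), and edgeR called none of them. The part of these cells in the levels of Gad1, Gad2, Slc32a1 and Slc6a5 was not tested.

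Astrocyte and Bergmann glia markers (10 genes, led by S100b in TPM and by Slc1a2 in CPM) summed to 396, 569, 849 and 525 CPM. This sum was lowest in replicate 1, as Slc6a11 was, but highest in replicate 3, where Slc6a11 was close to replicates 2 and 4. Gfap and S100b had the order of libraries of the sum, and the other genes of the list did not. Slc1a2, at 189.9, 297, 458 and 329 CPM, differed from it only in having replicate 4 above replicate 2. Gja1, Slc1a3, Gdf10 and Fgfr3 were lowest in replicate 4, with Gja1 at 14.4, 18.7, 27.0 and 2.91 CPM in replicates 1 to 4. Sox9, Fgfr3 and Aldh1l1 were highest in replicate 2. The sum of the oligodendrocyte markers (6 genes) was also lowest in replicate 1, at 471 CPM, against 729, 1150.2 and 996 CPM. Microglia markers summed to 3.85 to 11.5 CPM, led by P2ry12 in TPM and by Csf1r in CPM, with C1qa at 0 counts in every library. Vessel markers, led by Rgs5 in TPM and by Flt1 in CPM, summed to 12.9 to 49.8 CPM. Of the forebrain inhibitory neuron list (10 genes) 9, among them Dlx1, Dlx2 and Nkx2-1, had no count in any library, and Lhx6 had 5, 0, 111 and 0 counts. Whether glia contributed to Slc6a11 or Slc6a9 was not tested.

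**Figure D4:**
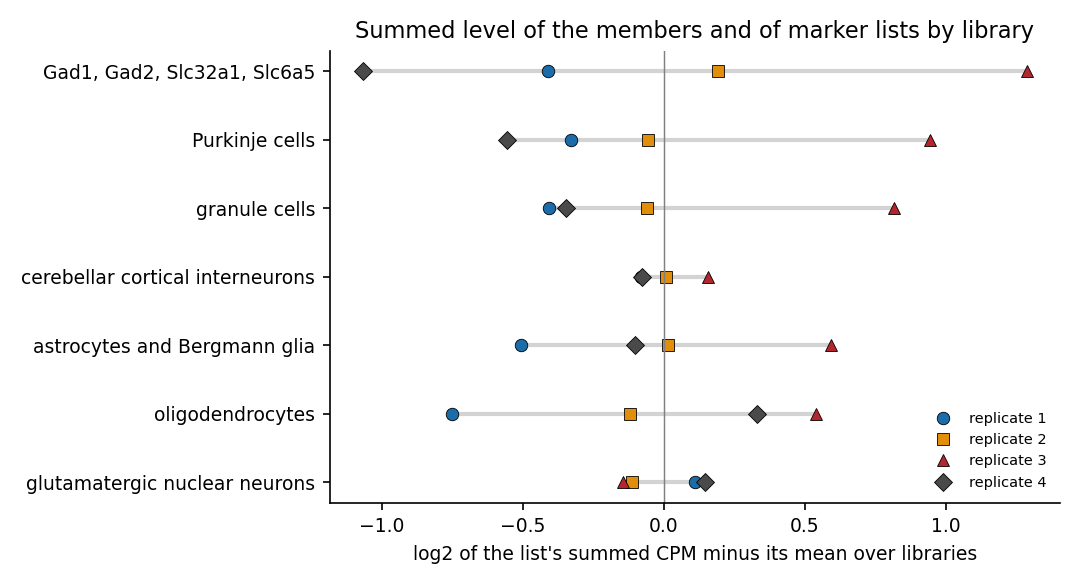
Summed CPM of Gad1, Gad2, Slc32a1 and Slc6a5 and of 6 marker lists in each library, as log2 minus the mean over the 4 libraries. Replicate 3 is highest for the 4 members and for every list drawn except the glutamatergic nuclear neurons, where it is lowest at 2498 CPM. That list includes Slc17a6, which is most of its sum.

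Of 12 other genes that handle GABA, 10 passed the filter, and 0 were called in any library by edgeR (adjusted p under 0.05) or by DESeq2. At an unadjusted p under 0.05 edgeR passed 1 (Glul, lower) in replicate 1, 0 in replicate 2, 1 (Glul, higher) in replicate 3 and 3 in replicate 4. Their median log2 fold change was 0.16 in replicate 3 and 0.08 in replicate 4, against -0.05 in both over all genes tested. In TPM the highest were Glul, the glutamine synthetase of glia, at 567 ± 299.8 and Slc38a1, a neuronal amino acid transporter, at 178 ± 18.4, and the lowest was Slc6a13 at 0.448 ± 0.788 (SD, n = 4). Of the genes that break GABA down, Abat, the GABA transaminase, was read at 47.3, 80.8, 102 and 54.5 CPM and Aldh5a1, the next enzyme, at 103, 144, 143 and 189.9 CPM.

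Of 12 glycine genes, 6 passed the filter and 0 were called by edgeR or DESeq2, with 1 at an unadjusted p under 0.05 (Psat1, a serine synthesis enzyme, higher in replicate 3). Their median log2 fold change was -0.03 in replicate 3 and -0.03 in replicate 4. The highest in TPM were Gcsh at 268 ± 91.5 and Dld at 161 ± 12.4, both subunits of the glycine cleavage system, and the lowest was the amino acid transporter gene Slc38a5 at 0.158 ± 0.316 (SD, n = 4). Gldc, the glycine decarboxylase of the same system, was far lower at 1.49 ± 1.20 TPM, with 0 CPM in replicate 4. Shmt1, which interconverts serine and glycine in the cytosol, had 7, 22, 178 and 6 counts, so most of its reads came from replicate 3.

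Of 14 transcription factor genes of inhibitory neurons, 4 passed the filter and 0 were called by edgeR or DESeq2, with 1 at an unadjusted p under 0.05 (Lhx1, higher in replicate 3). The median log2 fold change of the 4 was 0.51 in replicate 3 and -0.15 in replicate 4. Tfap2b, at 24.1 ± 5.96, and Olig2, also an oligodendrocyte factor, at 21.3 ± 9.85 TPM (SD, n = 4), were highest. Ptf1a and Prdm13, which act in precursors, had no count in any library. Lhx1, a factor of Purkinje and other neurons, had 34, 72, 190 and 22 counts, the order of libraries seen for Gad1 and Gad2. Gata2, a factor of midbrain and hindbrain inhibitory neurons, had 20, 0, 182 and 15 counts, again mostly in replicate 3, while Gata3 had 0 CPM in replicates 2 to 4.

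Among 10539 genes with a mean of at least 5 CPM, those nearest to the mean pattern of Gad1, Gad2, Slc32a1 and Slc6a5 were Acsf3, Zbtb43, Klc4, Car8 and Kcnk10. Likeness was the root mean square difference of the centred log2(CPM + 0.5) values over the 4 libraries, and it ran from 0.12 for Acsf3 to 0.18 for Kcnk10. The members themselves lay at 0.25 (Gad1) to 0.49 (Gad2) from their mean. Kcnk10, a potassium channel gene, was read at 8.42, 14.8, 32.7 and 2.28 CPM, and Zbtb43, a zinc finger gene, at 10.6, 16.9, 34.0 and 3.82 CPM. Nearest to Slc6a11 were Mrap2, Spryd3 and Il33 at 0.06 to 0.07, and nearest to Slc6a9 were Samd4b, Med1 and Ptchd1, each at 0.03.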

How the data were processed

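Each deposited file holds raw counts per gene name for 1 library, as the authors made them. Per the submitters' processing notes the tools were STAR 2.0.0e and HTSeq and the build mm10; which annotation and kit were used, and whether counting used strand, is not given in the sources used here. The 5 summary rows per file entered neither totals nor tests (no feature 14.1 to 21.1%, not unique 14.2 to 20.6%, ambiguous 2.04 to 2.94% of all counted reads). Reads carry no molecular identifiers, so intervals and floors cover counting error only.

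CPM was computed over all named genes. For TPM, union exon lengths came from GENCODE M21 (the same build as mm10), which gave a length to 73.4% of names, to 97.2% of the 11302 genes that had 10 counts or more throughout, and to all 8 members. In R 4.3.3, edgeR 4.0.16 compared each library with the remaining 3 (TMM, filterByExpr, robust glmQLFit, glmQLFTest; 2 residual degrees of freedom, with the lone library assumed to vary like the others), and limma 3.58.1 compared genes with Slc17a6 within libraries on log2(TPM + 0.5), where fold changes of low genes are understated. Tests were two-sided with Benjamini-Hochberg adjustment over all genes tested. The functions were tested on simulated data. Alternatives were DESeq2 1.42.0, RLE factors, no filter, Rn45s left out, pseudocounts 0.1 and 1, no length, TMM library sizes for levels, leaving out each replicate, and, chosen after seeing the data, the longest transcript as length. Promoter windows are RefSeq's, on GRCm38.p6.

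The members and lists were chosen with earlier results of these data known. Named by rule are the members, Slc17a6, the 2 highest and the lowest gene of each pathway list by TPM, the highest gene and genes at 0 of marker lists, and the genes of nearest pattern. Abat, Aldh5a1, Gldc, Shmt1, Lhx1, Gata2, Gata3, Psat1, Prkcd, Itpr1, Calb1, Ppp1r17, Pcp2, Skor2 and Lhx6 were named after their values were seen. The same holds for Lhx9, Meis2, Rgs8, Gng13, Slc1a2, Slc1a3, Gfap, Gja1, Gdf10, Fgfr3, Sox9 and Aldh1l1. It also holds for Spp1, Meis1, Lhx2, Tbr1, Irx3, Lypd6, Csf1r and Flt1. Some genes of these lists are not reported here.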

Additional observations from a re-analysis of the deposited data

Results flagged for a closer look

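A single sample stood far from the 3 others, with a gap to its neighbour above Dixon's 95% limit as a share of the whole range, in 2 of the 23 sets of values examined. Chance flags about 1 set in 20. For the CPM of Slc6a11 the low value was replicate 1, at 17.4 CPM against 37.5 to 40.0 CPM (a gap of 0.889 of the range). For the summed CPM of the forebrain inhibitory neuron list the value apart was a high one, replicate 3 at 10.6 CPM against 0 to 0.520 CPM (a gap of 0.951 of the range), and it rested on Lhx6 alone.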

How the results depend on the processing

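The number of genes called in 1 library against the other 3 depended on the settings, and the cause was not tested. In replicates 1 to 4 edgeR called 1, 0, 0 and 6 genes, DESeq2 14, 1, 69 and 342, and edgeR without a filter 32, 0, 86 and 416 of 18704 genes. Leaving out 1 of the other libraries gave 10 to 56 calls in replicate 1, 0 to 2 in replicate 2, 1 to 20 in replicate 3 and 35 to 173 in replicate 4, where the lone library is again assumed to vary like the others. The sign of the member values held under DESeq2, RLE factors, no filter and without Rn45s. Without a library it turned in 9 cases, none of them called, all in replicates 1 to 3. Calls on members appeared only in replicate 4: Slc32a1 with DESeq2 and without a filter, and Gad1 without a filter. The number of genes apart from Slc17a6 was 10876 and rose to 16526 with no filter, since more genes were tested; all members tested there stayed below it under every setting run. Of the 7 neighbouring pairs in the order of members, 5 kept their direction in CPM without length, 5 with the longest transcript, and 5 to 7 when a replicate was left out. No paired analysis was possible because the samples form 1 group. Low counts limit Slc6a5, Pax2 and Sox14, which had 0 counts in at least 1 library each.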
